A study of Mus musculus with 5 samples.

Results

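Unstimulated bone-marrow-derived macrophages were set against whole embryo on 1 two-channel cDNA array, and the genes at either end of that comparison are described here. The members are all genes with a ratio on the array taken at 0 h, before any lipopolysaccharide (LPS). Of 19828 probes, 19619 had a value on this array, 14759 were annotated to 1 gene, 170 to several and 4899 to none. The 14661 probes with 1 gene and a value were centred on the array median of 0.07 units and averaged per gene, which gave 9013 genes of the 9050 measured on any of the 5 arrays. Of these, 5762 rested on 1 probe and 3251 on several.

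The macrophages came from BALB/c mice and had been differentiated in culture with human CSF-1, a cytokine on which macrophages depend. The reference on every array was RNA of whole C57BL6/J embryos at 17.5 days, shortly before birth. The other 4 arrays carried macrophages held in LPS of S. minnesota at 10 ug/ml for 0.5, 2, 7 and 21 h, and they serve here only to show whether a 0 h ratio recurred. Each time has 1 array, and the labels do not say how many mice, cultures or embryos went into an RNA sample. Cell type and mouse strain differ together between the channels, so their parts in any ratio cannot be told apart.

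Macrophages are phagocytes that engulf particles, break them down in lysosomes and show fragments of cytosolic proteins on MHC class I molecules. They carry receptors for antibody and for microbial sugars and lipids, and they hold a set of interferon-stimulated antiviral genes ready at some level without infection. A late embryo is mostly other tissue: a liver that makes both blood cells and plasma proteins, skeletal muscle and heart, cartilage and bone laying down collagen, a cornifying epidermis and a brain. A ratio against whole embryo therefore reads each gene relative to a mixture, in which a gene made by 1 tissue is diluted by all the others.

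The deposited values are log ratios, and the sources used here do not give their base. All values below are in units of that log ratio after centring. A unit means 2-fold in base 2, 2.72-fold with natural logarithms and 10-fold in base 10. The direction is unstated too. It was read as macrophage over embryo, a likely but unsettled choice. Its basis is the order of the channels in the labels, together with the side on which macrophage-lineage genes fell against erythroid and liver genes, so those 3 lists give no separate support for anything. With the opposite direction every "above" would read "below". A ratio does not give a level, and dim spots were kept because signal over background was not used.

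With 1 array there is no replicate error and no test. The available measure of error was how far probes for one gene disagreed, with a pooled SD of 0.257 units. A gene was called beyond probe error when its mean differed from the array median by more than 2 such SD divided by the square root of its number of probes, which is 0.514 units for a gene with 1 probe. This covers spots and probe design, not the spread between cultures or embryos. The pooled SD served for every gene, so the counts include genes whose own probes disagreed more. Sesn1, for example, was called below with its 2 probes at -1.81 and 0.27.

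Ratios of most genes lay within a narrow range around the array median. Centring sets that median to 0, so a ratio near it does not show equal signal in both RNAs. The middle 90% of genes lay between -0.43 and 0.42 units, and 92.95% lay within 0.5 units of the array median. At least 1 unit above the median were 49 genes, or 0.544% of the 9013, and at least 1 unit below were 57, or 0.632%. Genes above made up 46.2% of both ends together, but quantile normalization over the 5 arrays gave 122 above and 50 below, a share of 70.9%. Beyond probe error, 381 genes lay above (4.23%) and 473 below (5.25%), and these are the background shares for every count of list members below.

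**Figure D1:**
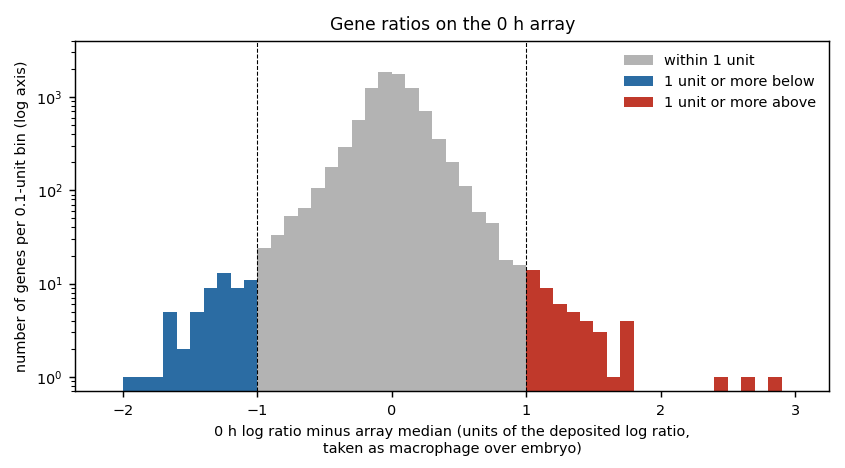
Number of genes on the 0 h array per 0.1-unit bin of log ratio (log axis), with dashed lines 1 unit from the array median. The 49 genes past the upper line reach 2.82 units and the 57 past the lower line reach -1.93 units, with 9013 genes in all.

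Genes of the macrophage lineage lay mostly above the median, led by those of lysozyme, antibody receptors and the actin cytoskeleton. Of 21 measured, 7 lay above and 0 below beyond probe error, with a list median of 0.20 units against 0.00 for all genes. Lyz2 encodes lysozyme M, the bacterial cell-wall hydrolase used as a marker of myeloid cells. Its ratio was 1.18 ± 0.38 (SD, 3 probes) at 0 h, then 1.23, 1.34, 1.27 and 1.51 on the 0.5, 2, 7 and 21 h arrays. Its 3 probes read 0.84, 1.11 and 1.59 at 0 h, so all were well above the median. Fcgr1, the high-affinity receptor for IgG, read 1.15 at 0 h, with 1.08, 3.46, 1.91 and 1.92 on the later arrays. Lilrb4a, an inhibitory immunoglobulin-like receptor of myeloid cells, read 1.09 and stayed between 0.90 and 1.26 on the other arrays. Lcp1, the leukocyte actin-bundling protein L-plastin, was at 0.90. Clec4n, which encodes the fungal-sugar receptor dectin-2, was at 0.76, and Fcer1g, the signalling chain shared by several Fc receptors, at 0.63.

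Several genes commonly used to define macrophages were not among these. Cd68, a lysosomal glycoprotein, read -0.16, Tyrobp, the adaptor DAP12, read -0.11, and Laptm5, a lysosomal membrane protein of blood cells, read -0.09. Fcgr2b, the inhibitory IgG receptor, was at -0.14 and Cebpa, a myeloid transcription factor, at -0.20. Each rested on 1 probe and none differed from the median beyond probe error. In all, 14 of the 21 lineage genes were within probe error of the median.

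The ratio of Ctss was among the highest of the named genes that also recurred on the other arrays. Ctss encodes cathepsin S, the lysosomal protease that trims the invariant chain for MHC class II loading. Its probe read 1.76 at 0 h and 1.07, 1.74, 1.77 and 2.31 at the 4 later times, so it was at least 1 unit above the median on all 5 arrays. Among 16 listed cathepsins and cystatins, 5 lay above and 2 below beyond probe error, with a median of 0.15. The list does not hold every measured gene of these families. Left out were, among others, Ctsq at 1.46, Ctsll3 at 0.72 and Cstdc6 at -0.93 ± 0.43 (SD, 2 probes), named after their values were seen. Ctsq had no value at 0.5 h and read 2.92, 0.10 and 0.60 at 2, 7 and 21 h. Cst3, the secreted protease inhibitor cystatin C, was at 0.63 ± 0.15 (SD, 6 probes), close to the 0.68, 0.61, 0.50 and 0.57 of the later arrays. Ctsc, the dipeptidyl peptidase that activates serine proteases, was at 0.59 ± 0.11 (SD, 2 probes). Ctsl, a general lysosomal endopeptidase, averaged 0.55, but its 4 probes disagreed with an SD of 0.63. Ctsb, another such protease, averaged 0.33 over 3 probes with an SD of 0.79, and the median of its probes was 0.14.

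The 2 members on the other side were both cytosolic inhibitors of cathepsins. Stfa3, a stefin A gene, read -1.41 at 0 h and -1.67, -1.29, -0.80 and -0.62 later, while Cstb, cystatin B, read -0.75 and lay between -0.92 and -0.49 on the other arrays. The stefin A genes are a cluster of close copies, so which copy the probe reads is uncertain. Ctsh, a lysosomal aminopeptidase, read -0.35, within probe error.

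Other lysosomal genes stood above the median in smaller numbers. Of 28 lysosomal hydrolases, 4 lay above and 0 below beyond probe error, and the list median was 0.14. Arsb, the sulfatase that degrades dermatan sulfate, read 1.35 at 0 h, had no value at 0.5 h and read 2.01, 0.82 and 0.53 at 2, 7 and 21 h. Hexa, a subunit of beta-hexosaminidase, was at 0.57 ± 0.27 (SD, 2 probes), and Gusb, beta-glucuronidase, at 0.50 ± 0.40 (SD, 3 probes). Asah1, acid ceramidase, was at 0.56, but its mean with the 0.5 h array was 0.36. The 28 genes of the lysosomal membrane and proton pump had 5 above and 0 below, with a median of 0.04, so most of that list did not stand apart. Scarb2, which carries beta-glucocerebrosidase to the lysosome, was at 0.64 on this array and at 0.06, 0.31, 0.40 and 0.41 on the others. Lamp2, a main protein of the lysosomal membrane, was at 0.35 ± 0.08 (SD, 3 probes).

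The list of MHC class I genes and inducible proteasome subunits had a median of 0.45 units, the highest of the 44 lists when all genes were used. Among genes with more than 1 probe it was 0.36, below the 0.44 of interferon-stimulated genes. Of 14 measured members, 7 lay above and 0 below beyond probe error. B2m, the light chain shared by all class I molecules, was at 0.94 ± 0.04 (SD, 3 probes), with probes at 0.91, 0.92 and 0.98. On the later arrays B2m read 1.09, 1.17, 1.09 and 1.32, so its ratio was similar on all 5. H2-D1, a classical heavy chain, was at 0.86. H2-Q8 and H2-Q10, of the Qa region, were at 1.04 and 0.67. H2-Q8 gave 0.15 and 0.16 at 0.5 and 2 h and 1.21 and 1.04 at 7 and 21 h, so the early arrays did not repeat its 0 h value. H2-Q10 likewise gave 0.16 and -0.15 at 0.5 and 2 h and 0.86 and 0.69 at 7 and 21 h. Class I heavy chains are close copies that also differ between the BALB/c and C57BL6/J haplotypes, so a heavy-chain probe cannot be tied to 1 gene with certainty.

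The inducible proteasome subunits, which favour peptides suited to class I molecules, are counted in this same list, and not all of them lay above. Psmb8 was at 0.65 ± 0.20 (SD, 7 probes) and Psmb9 at 0.68 ± 0.22 (SD, 2 probes). Tapbp, tapasin, which loads peptide onto class I and did not fall among the 6 highest of its list, was added after its value of 0.54 was seen. Tap2, a part of the peptide transporter, read -0.18, and the third inducible subunit Psmb10 read -0.09. The 33 constitutive proteasome genes held 0 beyond probe error on either side, with a median of 0.04. Of 6 MHC class II genes measured, 0 lay beyond probe error, from H2-Eb1 at -0.05 to H2-Aa at 0.26.

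Interferon-stimulated genes had many members above the median in macrophages that had received no LPS. Of 39 measured, 13 lay above and 0 below beyond probe error, 5 of them by at least 1 unit, and 32 were above the array median at all. AW112010, an interferon-inducible transcript, read 1.32 at 0 h and 1.13, 1.59, 1.44 and 1.32 later. Ifi204, of the p200 family of nucleic-acid-binding proteins, read 1.28 and then 1.85, 2.25, 1.77 and 1.64. Both were at least 1 unit above the median on every array. Oasl2, of the 2'-5' oligoadenylate synthetase family, was at 1.12 with its 2 probes at 1.11 and 1.13. It then read 0.21, 0.77, 1.43 and 0.89, so the 0.5 h array did not repeat the 0 h value. Rsad2, the antiviral enzyme viperin, was at 0.96 ± 0.11 (SD, 2 probes) and then at 0.20, 1.75, 2.02 and 1.89.

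Tgtp1, an interferon-inducible GTPase of resistance to intracellular microbes, read 1.14 at 0 h, -0.16 at 0.5 h, and 1.88 and 1.73 at 7 and 21 h, with no value at 2 h. Ifi27l2a, a small interferon-inducible membrane protein, read 1.08, 1.01, 0.84, 0.19 and 0.41 in order of time, so it was lower on the late arrays than at 0 h. The lowest members were Irf1 at -0.27, a transcription factor of the interferon response, and Oasl1 at -0.15. Both were within probe error of the median. Averaged over 0 h and 0.5 h, the ratio was 0.66 for Oasl2, 0.58 for Rsad2, 0.49 for Tgtp1, 0.59 for H2-Q8 and 0.41 for H2-Q10, so these 5 values rested on the 0 h array more than those of AW112010 and Ifi204 did.

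Promoter sequences of members of this list are shown because many hold the core of the interferon-stimulated response element, the site bound by the factors that interferon activates. RefSeq promoter windows of the C57BL/6J reference (build GRCm38.p6), from 250 bases before to 50 bases after the start, were matched by symbol for 7258 of the 9013 genes. The core of the interferon-stimulated response element, searched on both strands, occurred in 265 of 7258 windows, or 3.65%. It occurred in 15 of the 31 interferon-stimulated genes with a window, or 48.4%. The median 0 h ratio of these 15 was 0.46, and that of the 16 without it was 0.14. Among genes at least 0.7 units above the array median, 13 of 100 windows held it, and among those at least 0.7 units below, 5 of 131. The core was not the only sequence with a larger share at the high end. The letters TATAAA of the TATA box, a core promoter element, were searched too. They lay in 27 of the 100 windows above and 22 of the 131 below, against 11.0% of all 7258. Each stretch below is written 5′ to 3′ on the strand of the gene, with the match in capitals. Ifit1, Gbp2, Igtp and Irgm2 were picked to be shown after their ratios of 0.77, 0.55, 0.49 and 0.45 were seen. Matches before the start that are not shown lay in Ifi205 at 0.51, Cxcl10 at 0.41, Lgals9 at 0.29 and Stat2 at 0.16. Others not shown lay in Ifit3 at 0.05 and Ifitm2 at -0.05, so the stretches shown do not stand for the low members.
Tgtp1, chr11:48992294-48992343, minus strand: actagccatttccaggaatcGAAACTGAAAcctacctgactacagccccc
Igtp, chr11:58199502-58199551, plus strand: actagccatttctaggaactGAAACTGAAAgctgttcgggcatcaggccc
Irgm2, chr11:58214893-58214942, plus strand: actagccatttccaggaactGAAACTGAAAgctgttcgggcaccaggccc
Rsad2, chr12:26456543-26456592, minus strand: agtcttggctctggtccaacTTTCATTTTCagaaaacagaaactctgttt
Ifit1, chr19:34640784-34640833, plus strand: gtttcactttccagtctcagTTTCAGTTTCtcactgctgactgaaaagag
Gbp2, chr3:142620584-142620633, plus strand: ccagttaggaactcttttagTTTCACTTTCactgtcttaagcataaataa

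The match ended 67 bases before the annotated start in Tgtp1, 24 in Igtp and 54 in Irgm2. These 3 genes encode GTPases of the same interferon-inducible group, and the printed stretches of Igtp and Irgm2 were identical at 48 of 50 bases, while that of Tgtp1 matched Irgm2 at 36 of 50. Probes for such related genes may read each other's transcripts, which was not tested. A match of letters is a description of the reference sequence and does not show binding.

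Receptors and surface proteins of leukocytes were divided. Of 15 Fc and pattern-recognition receptors, 5 lay above and 0 below beyond probe error, with a median of 0.03. Besides Fcgr1, Clec4n and Fcer1g, these were Pilra, an inhibitory receptor of myeloid cells, at 0.81, and the scavenger receptor Cd36 at 0.40 ± 0.20 (SD, 7 probes). Fcgr1, Clec4n and Fcer1g also belong to the macrophage-lineage list used to choose the direction, so they give no separate support here. Axl, a receptor for apoptotic cells, read -0.21, within probe error. Among 30 leukocyte surface proteins and integrins, 3 lay above and 3 below. Ms4a6b, a tetraspanning protein of leukocytes, was at 0.88, whereas Cd24a, a sialoglycoprotein that many immature and epithelial cells carry, was at -0.70 ± 0.42 (SD, 8 probes). Icam2, an adhesion ligand, read 1.01 at 0 h but -0.18, -0.32, -0.13 and -0.11 on the 4 other arrays, so none of them repeated its value. Slamf9, of the SLAM receptor family, read -0.82, and its mean with the 0.5 h array was -0.41.

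Genes of phagocyte signalling and the cytoskeleton lay above more often than below. Of 43 measured, 9 lay above and 1 below beyond probe error, with a median of 0.13. Members that this or another list shares with the macrophage-lineage list, such as Aif1 and Coro1a here, give no separate support. How many of the 9 are shared was not counted. Syk, the kinase that acts downstream of Fc receptors and dectins, read 0.94 at 0 h and 0.46, 1.42, 1.25 and 0.97 later. Skap2, an adaptor of integrin signalling, read 0.80 and lay between 0.70 and 1.09 on the other arrays. Tmsb4x, thymosin beta 4, which binds actin monomers, was at 0.71 ± 0.12 (SD, 5 probes) and between 0.62 and 0.77 on the others. The member below was Cnn2, a calponin, at -0.39 ± 0.29 (SD, 4 probes).

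Iron storage and peroxide-handling genes formed most of the high members of the oxidative defence list, in which 6 of 32 lay above and 1 below. Ftl1, ferritin light chain, was at 0.60 ± 0.31 (SD, 6 probes) and Fth1, the heavy chain, at 0.42 ± 0.34 (SD, 4 probes). Prdx1, a peroxiredoxin, was at 0.39 ± 0.22 (SD, 9 probes), with 0.41, 0.43, 0.53 and 0.94 on the later arrays. Gsr, glutathione reductase, read 0.63, but 1.79 at 0.5 h.

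Among chemokines, cytokines and their receptors 4 of 30 lay above and 0 below, with a median of -0.01. Ccl9, a chemokine made by myeloid cells, read 0.83 at 0 h and 0.87, 1.02, 1.16 and 1.36 later. Ccl6, a related chemokine, was at 0.42 ± 0.30 (SD, 7 probes), and Pf4, a chemokine of platelets that macrophages can also make, at 0.69. Tnfrsf1a, the first TNF receptor, was at 0.62, but at 0.00 on the 0.5 h array. In the complement list 1 of 13 lay above and 4 below. Cfp, properdin, which stabilises the alternative-pathway convertase and is made by leukocytes, was at 0.57, while C1s1, a protease of the first component, was at -0.94 and Cr2, a complement receptor of B cells, at -0.72 ± 0.09 (SD, 2 probes).

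The lipid-handling list had 5 of 40 above and 6 below, with a median of 0.00. Above were Pla2g4a, the phospholipase that frees arachidonate, at 0.73, and Alox5ap, the 5-lipoxygenase activating protein, at 0.51 ± 0.11 (SD, 2 probes). Below were 3 fatty-acid-binding proteins: Fabp4 at -1.03, Fabp5 at -0.66 ± 0.15 (SD, 3 probes) and Fabp3 at -0.36 ± 0.20 (SD, 5 probes). Fabp4 read -0.88, -0.56, -0.60 and -0.53 later, so it stayed on the same side. Nr1h3, the sterol-sensing nuclear receptor LXR alpha, read -0.74 at 0 h and -0.85 and -2.19 at 0.5 and 2 h, but 0.05 and -0.06 at 7 and 21 h.

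**Figure D2:**
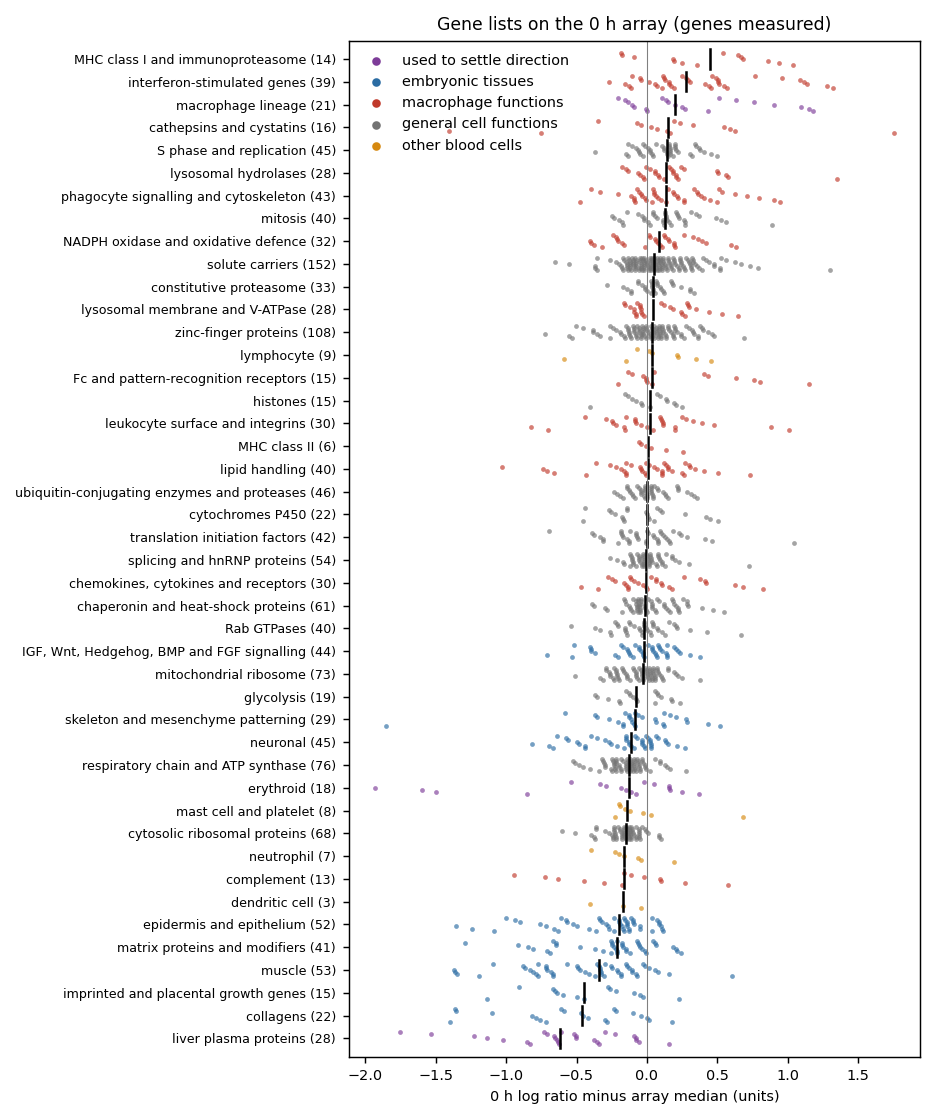
Each row is a gene list, with the number of genes measured in parentheses, and each dot is a gene's 0 h log ratio minus the array median. Black bars are list medians, ordered from 0.45 for MHC class I with the inducible proteasome to -0.62 for liver plasma proteins. The list median lies far below 0 for liver, collagen, imprinted and muscle genes, while most general lists are centred near 0.

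The low end was led by the adult globins. Hbb-b1, the adult beta globin chain, averaged -1.93 ± 0.43 (SD, 21 probes), and every probe lay between -2.64 and -1.27. It read -1.68, -1.79, -1.60 and -1.60 on the later arrays. The alpha globins gave -1.60 ± 0.28 (SD, 9 probes) for Hba-a2 and -1.5 ± 0.33 (SD, 15 probes) for Hba-a1. These 2 genes are near-identical copies, so their probes cannot be assigned to 1 copy. Hbb-bh1, an embryonic beta-like chain, was at -0.85 ± 0.45 (SD, 3 probes). Car1, carbonic anhydrase 1, a major protein of red cells that is also found in the gut, read -1.63 at 0 h and -1.75, -1.62, -1.27 and -1.17 later. In these pooled RNAs, more cells of a type in the embryo and more RNA per cell cannot be told apart.

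Erythroid genes other than globins did not lie low as a group. The whole erythroid list, globins included, had 18 genes measured, of which 5 lay below and 0 above beyond probe error. Its median was only -0.13. Those below were the globins Hbb-b1, Hba-a1, Hba-a2 and Hbb-bh1, and Car2, carbonic anhydrase 2, at -0.54. The other 13 were within probe error. Among these were the embryonic globins Hba-x at -0.33 and Hbb-y at -0.15, the latter named after its value was seen. The erythropoietin receptor Epor read 0.37 and the erythroid transcription factor Gata1 read 0.25, both within probe error. Slc4a1, the anion exchanger of the red-cell membrane, read 0.05.

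Plasma proteins of the liver had a list median of -0.62, with 19 of 28 below and 0 above beyond probe error. Alb, serum albumin, was at -1.76 ± 0.34 (SD, 5 probes), with probes from -2.31 to -1.41, and at -1.45, -1.60, -1.49 and -1.32 on the later arrays. Afp, alpha-fetoprotein, the main plasma protein of the fetus, averaged -1.23, with its 2 probes apart at -1.78 and -0.68. The fibrinogen chains were at -1.53 for Fga and -1.14 ± 0.26 (SD, 2 probes) for Fgb. Fga read -0.87, -0.43, -1.43 and -1.09 later, on the low side every time. Itih3, a chain of the inter-alpha-trypsin inhibitor family, was at -1.02 ± 0.63 (SD, 2 probes), and Apoh, a phospholipid-binding plasma protein, at -0.85 ± 0.22 (SD, 2 probes). The highest members were Ambp at 0.16, the precursor of another protein of that inhibitor complex, and Serpind1 at -0.05, heparin cofactor II.

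Promoters of 4 of these liver genes are shown for the core of the site of CCAAT/enhancer-binding proteins, factors of liver and of myeloid cells. The letters TTNNGCAA, searched on both strands (TTGCNNAA on the other), occurred in 769 of 7258 windows, or 10.6%, and in 11 of the 23 liver plasma genes with a window, or 47.8%. The median ratio of these 11 was -0.52, and that of the 12 without the letters -0.37. Other lists held the letters in unlike shares. They occurred in 6 of 23 windows (26.1%) of the lysosomal membrane and proton pump, 7 of 29 (24.1%) of lipid handling and 5 of 26 (19.2%) of matrix proteins. In the interferon-stimulated list 1 of 31 windows held them, and in the erythroid list 0 of 11. Among genes at least 0.7 units above the array median 11 of 100 windows held them, and among those at least 0.7 units below 23 of 131. The 4 stretches are those of the lowest liver genes with a match before the start, on the strand of the gene, in build GRCm38.p6 from RefSeq.
Alb, chr5:90460756-90460803, plus strand: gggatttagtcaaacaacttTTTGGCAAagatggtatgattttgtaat
Fga, chr3:83025998-83026045, plus strand: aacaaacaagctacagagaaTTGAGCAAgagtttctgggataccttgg
Afp, chr5:90490605-90490652, plus strand: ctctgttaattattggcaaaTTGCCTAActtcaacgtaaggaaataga
Fgb, chr3:83049916-83049963, minus strand: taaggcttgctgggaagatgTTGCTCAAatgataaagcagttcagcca

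The match ended between 72 and 127 bases before the start in these 4 genes. A further sequence of letters, GAGGAAGT (ACTTCCTC on the other strand), read by the myeloid factor PU.1, occurred in 253 of 7258 windows, or 3.49%. It occurred in 7 of 18 leukocyte surface genes, or 38.9%, but in 1 of 16 macrophage-lineage genes. The median 0 h ratio of those 7 was 0.11 and that of the 11 others 0.10. Genes at least 0.7 units above the array median held these letters in 4 of 100 windows, and those at least 0.7 units below in 6 of 131.

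Several collagen chains were among the lowest genes. Of 22 collagen genes, 10 lay below and 0 above beyond probe error, with a median of -0.46. Col1a2, the second chain of type I collagen of bone and skin, was at -1.40 ± 0.06 (SD, 2 probes), then at -1.51, -1.60, -1.60 and -1.57. Its partner chain Col1a1 averaged -1.36, with 2 probes at -2.01 and -0.72, and lay between -1.5 and -1.32 on the later arrays. Col2a1, the collagen of cartilage, read -1.35 and then -1.16, -1.23, -1.40 and -1.41. Type VI chains were at -1.10 for Col6a2 and -0.82 for Col6a3. Col3a1, the chain that accompanies type I collagen in soft tissue, was at -0.10, and Col18a1, of basement membranes, at 0.18, neither beyond probe error.

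Of 41 other matrix proteins and modifiers, 10 lay below and 0 above, with a median of -0.21. Sparc, a collagen-binding glycoprotein, was at -1.29 ± 0.48 (SD, 3 probes) and at -1.18, -1.34, -0.72 and -1.26 later. Postn, periostin, was at -0.92 ± 0.40 (SD, 2 probes), and Lox, the enzyme that cross-links collagen, at -0.85. Gas1, a membrane protein of Hedgehog reception in mesenchyme, read -1.85, the lowest value of a gene with 1 probe, and -1.17, -1.35, -1.31 and -1.36 later. Its list did not lie low as a whole: of 29 skeletal and mesenchymal patterning genes 2 lay below and 1 above, and the median was -0.09. The other gene below was Hoxb6 at -0.58, and the gene above was Ihh at 0.52.

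Many genes of skeletal muscle lay below and others did not, those of the heart were likewise divided, and those of smooth muscle mostly did not lie below. Of 53 muscle genes measured, 26 lay below and 1 above beyond probe error, with a median of -0.34. Myl1, a myosin light chain of fast skeletal muscle, was at -1.37 ± 0.35 (SD, 4 probes) and at -1.02, -0.96, -1.24 and -0.97 later. Ckm, the creatine kinase of muscle, read -1.36 and stayed between -1.51 and -1.16. Mylpf, the regulatory light chain of fast fibres, read -1.35 at 0 h and between -1.55 and -0.94 later. Mybpc1, a thick-filament protein of slow fibres, was at -1.19, and Tpm2, beta tropomyosin, at -1.09 ± 0.26 (SD, 5 probes). Other skeletal-muscle genes were within probe error, among them Neb at 0.02, Tcap at -0.02, Myh4 at -0.11, Myh1 at -0.20 and Acta1 at -0.33. Nppb, a natriuretic peptide of the heart, was at -0.88. Of other cardiac genes, Myl4 at -0.79, Csrp3 at -0.68, Myl2 at -0.67, Mybpc3 at -0.44 and Actc1 at -0.37 lay below. Nppa at 0.15, Myh6 at -0.07, Tnni3 at -0.14 and Myl7 at -0.15 were within probe error. The muscle transcription factors were divided: Myod1 read 0.06, within probe error, while Myf6, named after its value was seen, read -0.71 and lay below. The nicotinic receptor subunit Chrna1 read 0.08. The member above was Myh11, smooth-muscle myosin, whose probe read 0.60 at 0 h, 0.42 at 0.5 h and 2.84 at 2 h. Of other smooth-muscle genes, Acta2 at -0.07, Cnn1 at -0.18, Tagln at -0.19 and Mylk at -0.25 were within probe error. Myl9 at -0.30 lay below. These smooth-muscle genes besides Myh11, and the cardiac genes besides Nppb and Nppa, were named after their values were seen. So were Myh4, Myh1 and Acta1.

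Genes of the epidermis and other epithelia had 17 of 52 below and 0 above, with a median of -0.20. Krt1, a keratin of the cornifying layers, read -1.36 and then -1.75, -1.87, -0.84 and -1.33. Krt13, a keratin of internal stratified epithelium, was at -0.90 ± 0.27 (SD, 7 probes) and between -0.91 and -0.69 later. Dmkn, a secreted protein of differentiating keratinocytes, was at -1.09. Fabp2, the intestinal fatty-acid-binding protein, was at -1.24 ± 0.32 (SD, 2 probes) and at -0.76, -0.77, -0.65 and -0.30 later, so it lay nearest the median at 21 h. Krt18, of simple epithelium, read 0.10, within probe error.

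Neuronal genes lay less far from the median. Of 45 measured, 8 lay below and 0 above, with a median of -0.11. Dcx, doublecortin of migrating neurons, read -0.82 at 0 h but -0.33, -0.27, -0.47 and -0.16 later. Ptn, the growth factor pleiotrophin, was at -0.70 ± 0.30 (SD, 8 probes) and between -0.71 and -0.59 on the other arrays. Uchl1, an abundant neuronal ubiquitin hydrolase, was at -0.66. Neurog2 and Neurod1, transcription factors of neurogenesis, read 0.27 and 0.15, within probe error.

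Imprinted genes of fetal growth lay below as a list, with 7 of 15 below and 0 above and a median of -0.44. Mest was at -1.14 ± 0.36 (SD, 4 probes) and at -0.61, -0.35, -0.97 and -0.94 later. Igf2, the fetal insulin-like growth factor, was at -0.91 ± 0.28 (SD, 2 probes), and Meg3, a noncoding RNA expressed from the maternal allele, at -0.59 ± 0.25 (SD, 4 probes). Dcn, decorin, and Nnat, neuronatin, at -0.67 and -0.64, are members of other lists here as well. Cdkn1c, an imprinted inhibitor of the cell cycle, read -0.03. The 44 genes of IGF, Wnt, Hedgehog, BMP and FGF signalling had 6 below and 0 above, with a median of -0.02. Their lowest were the Wnt receptor Fzd3 at -0.71 and the Wnt antagonist Sfrp1 at -0.53, and their highest was Igf1 at 0.38, a growth factor that macrophages make.

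Lists of general cell functions had medians close to the array median, but in some of them the share beyond probe error exceeded that of all genes. Replication genes had a median of 0.14, with 33 of 45 above the array median but 1 beyond probe error. Mitotic genes had a median of 0.13, with 30 of 40 above and 4 (10.0%) beyond probe error, against 4.23% of all genes. On the 0.5, 2, 7 and 21 h arrays the replication list had medians of 0.12, 0.08, -0.07 and -0.03, and the mitotic list 0.15, 0.24, 0.05 and -0.10. Cytosolic ribosomal protein genes had a median of -0.15, and 64 of 68 were below the array median, 10 of them beyond probe error. The lowest were Rpl24 at -0.61 and Rps19 at -0.51, although the median over the probes of Rps19 was -0.32. Respiratory chain and ATP synthase genes had a median of -0.13, with 68 of 76 below the array median and 9 beyond probe error, the lowest being Atp5d at -0.53. For comparison, 4469 of all 9013 genes were below the array median. The shares below beyond probe error were 14.7% of ribosomal and 11.8% of respiratory genes, against 5.25% of all genes.

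Markers of other blood cells, which a marrow culture could hold, were mostly within probe error. The neutrophil list had 0 of 7 beyond it, with Elane at 0.19 and Camp at -0.40 as its ends. Of 9 lymphocyte genes 1 lay below, Cd79b of the B-cell receptor at -0.59, and 0 above. Of 8 mast cell and platelet genes 1 lay above, Pf4. The 3 dendritic cell genes measured, Zbtb46, Ccr7 and Fscn1, read -0.04, -0.17 and -0.40. Because the embryo also holds blood cells, a ratio near the median does not show that such cells were absent from the cultures.

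The ends differed in how far the other arrays repeated them. All genes were read against the same reference RNA with the same probes, and the later macrophages had received LPS, so agreement of the arrays is no independent replication. Of the 57 low genes, 56 had a value on all 5 arrays, 39 were at least 0.5 units below on every array and 17 at least 1 unit below. Of the 49 high genes, 23 had a value on all 5, 8 were at least 0.5 units above on every array and 5 at least 1 unit above. Those 5 were Ctss, AW112010, Ifi204, Lyz2 and Fcgr1. Over the 8699 genes with a value on all arrays, 94 (1.08%) were at least 0.5 units below on each and 36 (0.414%) above.

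Several of the highest single values were not repeated at 1 unit on the late arrays. Clasp2, a microtubule plus-end protein, read 2.82 at 0 h, had no value at 0.5 and 2 h, and read 0.04 and 0.81 at 7 and 21 h. Mthfd2l, a mitochondrial folate enzyme, read 2.63 and then 0.15, 0.10, -0.18 and -0.15. Zswim2 read 2.49, had no value at 0.5 and 2 h, and read -0.12 and 0.45 later. Spam1, a hyaluronidase of sperm, read 1.68 at 0 h, had no value at 0.5 h, and read 1.04 at 2 h, then -0.15 and -0.09. Edar, a receptor of skin appendages, read 1.36 at 0 h, had no value at 0.5 and 2 h, and read -0.15 and 0.01 later. Each of these 5 rested on 1 probe.

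Missing values moved with the high end. Of its 49 genes, 21 (42.9%) had no value at 0.5 h and 21 at 2 h, against 1.79% and 0.832% of all genes. In the low end 1 gene had no value at 0.5 h and 0 had none at 2 h. At both 7 and 21 h, 24 of the 49 high genes lay under 0.5 units, compared with 8 of the 57 low genes on their side. The median of the high genes went from 1.22 at 0 h to 1.11, 1.30, 0.21 and 0.47, and that of the low genes from -1.27 to -1.02, -0.97, -0.97 and -0.94. Of the high genes 44 had 1 probe, of the low genes 41. What part missing spots had in the high values was not tested.

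**Figure D3:**
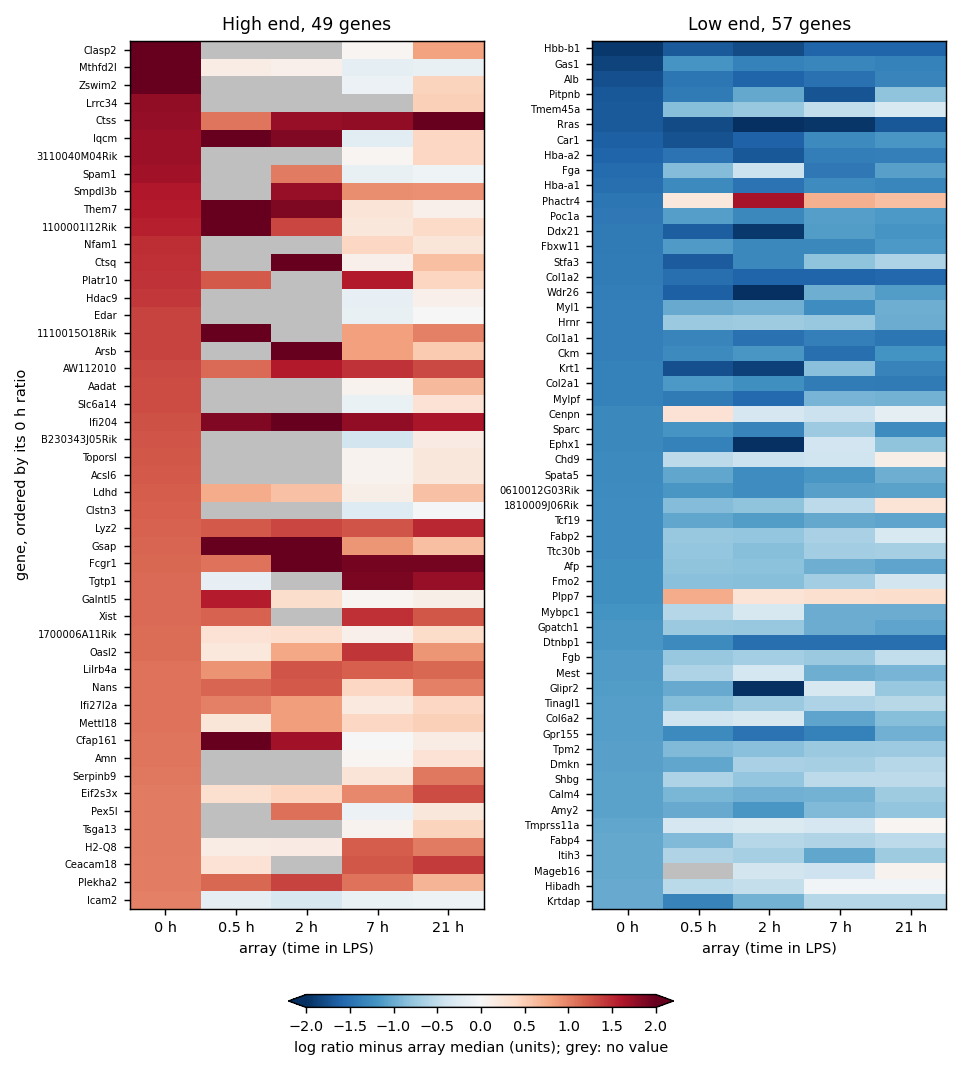
Log ratio minus array median (colour, units) of the 49 highest and 57 lowest genes of the 0 h array on each of the 5 arrays, in order of their 0 h ratio. Grey marks no value. Of the 57 low genes 39 are at least 0.5 units below on all arrays and 7 turn to the other side on at least 1, while 21 of the high genes are grey at 0.5 h and 24 lie under 0.5 units at both 7 and 21 h.

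A few low genes went to the other side of the median on later arrays. Phactr4, a regulator of protein phosphatase 1, read -1.44 at 0 h and 0.21, 1.64, 0.72 and 0.61 later. Cenpn, a centromere protein, read -1.30 at 0 h and 0.29, -0.34, -0.44 and -0.18 later. In all, 7 of 57 low and 13 of 49 high genes were on the other side on at least 1 array. In contrast, Rras, a small GTPase, read -1.69, -1.79, -2.31, -1.95 and -1.69 in order of time, and Pitpnb, a phosphatidylinositol transfer protein, read -1.70, -1.42, -1.02, -1.72 and -0.81. Each rested on 1 probe, and a repeated reading of 1 probe does not show that the gene itself is low. Top1, named after its values were seen, had 1 probe at -1.37, -1.24, -1.44, -1.31 and -1.32 in order of time. Its other probe read -0.01 at 0 h.

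Several probes read 5 of the 49 high genes and 16 of the 57 low genes, so agreement of probes can be seen for unequal numbers at the ends, and the difference between the ends was not tested. Of 1270 genes with 3 or more probes, 3 had all probes at least 1 unit below, namely Alb, Hba-a2 and Hbb-b1, and 0 had all at least 1 unit above. At 0.5 units, 15 such genes had all probes below and 3 had all above, which were B2m, Lyz2 and Tmsb4x. Of 3251 genes with 2 or more probes, Oasl2 had all at least 1 unit above, and 5 had all at least 1 unit below: Alb, Col1a2, Fabp2, Hba-a2 and Hbb-b1. The number of probes also differed between genes, with 21 for Hbb-b1.

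**Figure D4:**
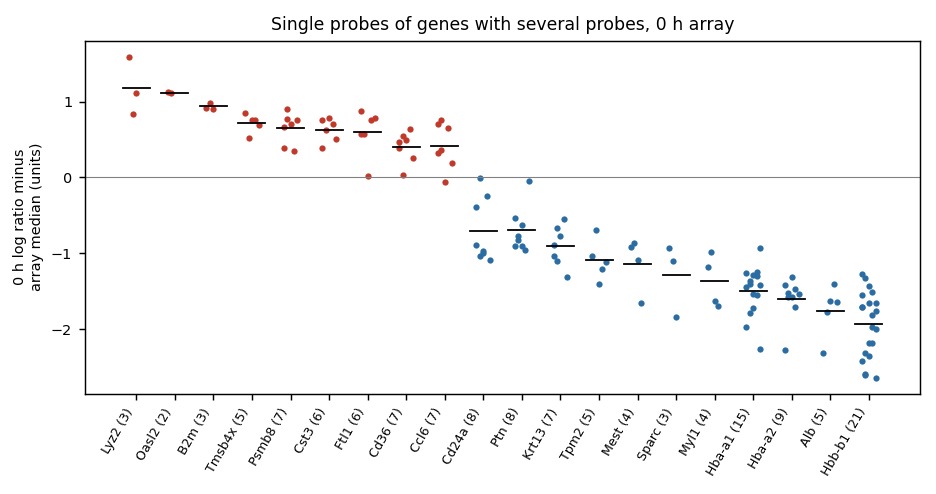
Every probe (dot) of genes with several probes on the 0 h array, with the number of probes in parentheses and a bar at their mean; the vertical axis is log ratio minus array median in units. All 21 probes of Hbb-b1 lie below -1.2, the 3 probes of B2m lie together near 0.9, and single probes of Cd24a, Ptn and Ftl1 lie near 0.

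Over probes rather than genes, part of the high end had no gene name. At least 1 unit above the median were 171 probes, of which 70 had 1 gene and 101 did not. In the stretch of probe numbers from 18001 to 19000 lay 88 of the 101, and no probe of that stretch had 1 gene. The highest value among them was 3.51, above that of any named probe. Their median was 1.35 at 0 h, 1.54 at 0.5 h and 0.93 at 2 h, but -0.05 and 0.09 at 7 and 21 h, and 25 had no value at 0.5 h. Of 271 probes at least 1 unit below, 204 had 1 gene, and 79 lay between 14001 and 15000. That stretch holds many repeated probes of Hbb-b1, Hba-a1, Hba-a2 and Alb, which had 21, 15, 9 and 5 probes on the array. The probe counts therefore do not count separate genes.

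**Figure D5:**
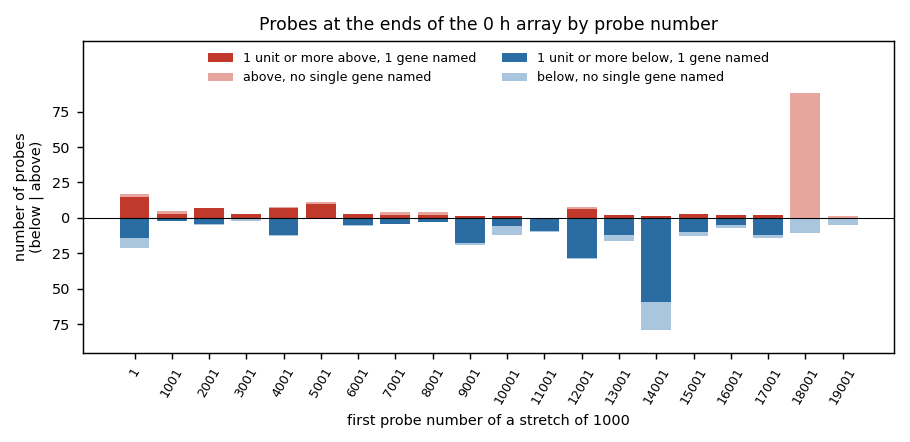
Number of probes at least 1 unit above (upward) or below (downward) the 0 h array median in each stretch of 1000 probe numbers, with probes of 1 named gene in dark and others in pale colour. The tallest upward bar, 88 probes from 18001 to 19000, is entirely pale, and the longest downward bar, 79 probes from 14001 to 15000, is mostly dark. The downward bar includes many repeated probes of globins and albumin.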

How the data were processed

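The authors deposited a series matrix of signed log ratios, 1 per probe and array, which were treated as a score. The sources used here do not give base, direction, background correction, normalization or spot filters. Per the labels' protocols, total RNA was taken with a column kit and cDNA labelled through amino-allyl nucleotides; Cy3 is the dye named. The 5 arrays had 207 to 681 empty values each, and their values ran from -3.01 to 4.28.

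Each array was centred on its median (0.07 at 0 h), probes annotated to 1 gene were averaged per gene, and counts were taken at 1 unit and beyond 2 pooled probe SD. Gene IDs of 14628 probes were found in a RefSeq table, and 0 symbols changed. With 1 array per time, no test was made and the number of arrays limits the precision. Members and lists were chosen with earlier results of these data known. Genes to name were drawn from the 30 highest and 30 lowest, those with 3 or more probes all past 1 unit, and up to 6 highest and 6 lowest members of each list. Not all of these are named in the text. Among those left out are Lrrc34 at 1.77, Iqcm at 1.72 and Them7 at 1.59 above. Tmem45a at -1.69, Poc1a at -1.43 and Ddx21 at -1.42 are among those left out below. The calculation was checked on simulated data. Alternatives were no centring, quantile normalization, a running median over 201 probes, probes with values on all 5 arrays, median over probes, genes with several probes, the mean with the 0.5 h array, single probes, and thresholds of 1.5 and 0.7 units. Python 3.11.15, numpy 2.4.6, pandas 2.3.3 and matplotlib 3.10.9 were used.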

Additional observations from a re-analysis of the deposited data

How the results depend on the processing

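The count of 49 genes at least 1 unit above the median became 122 with quantile normalization, 113 with 0 h and 0.5 h averaged, 20 with probes that had values on all 5 arrays and 5 among genes with more than 1 probe. The count of 57 below became 16 among genes with more than 1 probe and 204 when probes were counted singly, where 70 lay above. Single counting enters a gene once for each probe, as for Hbb-b1 with 21. At 1.5 units 11 lay above and 10 below, and at 0.7 units 128 and 167. No centring gave 61 and 50, the running median 43 and 45, and the median over probes 49 and 56. With quantile normalization 50 lay below, and with the mean of both arrays 44. Among genes with more than 1 probe, list medians moved from -0.46 to -0.23 for collagens, 0.15 to 0.33 for cathepsins, -0.13 to -0.26 for erythroid and 0.27 to 0.44 for interferon-stimulated genes. List medians beyond 0.1 units kept their side in the alternatives run. Of those nearer 0, the signalling, chaperonin and Rab lists changed sign without centring, glycolysis and leukocyte surface genes among genes with several probes, and MHC class II and Fc receptor lists with 0 h and 0.5 h averaged. Chemokine, lipid, histone, initiation factor, splicing, mitochondrial ribosome, cytochrome and ubiquitin lists also changed sign under at least 1 alternative.

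No paired analysis was possible because each time has 1 array and no groups share replicates. Leaving out a replicate was not run, since 0 h has 1 array. Signal over background and spot quality were not used here.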

Other observations

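The genes below are not described above, and Xist, Eif2s3y and Plekha2 were chosen after their values were seen. Xist, the noncoding RNA of the inactive X chromosome, read 1.13 on the 0 h array and 1.18, 1.46 and 1.25 on the 0.5, 7 and 21 h arrays, with no value at 2 h. Eif2s3x, an X-linked translation initiation factor, read 1.05 at 0 h and 0.32, 0.43, 0.97 and 1.30 later, while its Y-linked partner Eif2s3y read -0.18 at 0 h. The labels give the sex of neither the mice nor the embryos. Gsap read 1.16 at 0 h and 3.18, 2.53, 0.89 and 0.60 later, and Plekha2, a phosphoinositide-binding adaptor, read 1.02 and then 1.14, 1.35, 1.08 and 0.68. Both were at least 0.5 units above the median on every array.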
